A study of Mus musculus with 15 samples.

Results

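Leptotene and zygotene spermatocytes were sought in single-cell RNA-seq libraries of mouse testis and selected on the measured UMIs (unique molecular identifiers, 1 per captured transcript) of 14 genes. A cell was taken as a member if at least 2 of Prdm9, Meiob, Dmc1, Prss50 and Ly6k were detected and Sycp1 plus Sycp3 gave at least 2 UMIs. It also had to lack any UMI of Pou5f2, Aurka or Acrv1 and to show fewer than 2 of Stra8, Kit, Dmrtb1 and Sohlh1. Cells with fewer than 500 genes or 1000 UMIs, or with 30% or more of their UMIs from mitochondrial genes, had been set aside. The rule found 1262 cells among 76494 that passed these filters (1.65%), of which T held 271, VC-T 294, R 252, VC-R 235 and UC 210.

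The 15 libraries came from adult DBA/2J males, 1 testis of 1 mouse per library and 3 mice per group. T mice received JQ1, a small-molecule inhibitor of the BET bromodomain proteins that include the testis-specific BRDT, at 50 mg/kg daily by intraperitoneal injection for 3 wk and were sampled at 10 wk of age. VC-T mice received the vehicle, DMSO in a cyclodextrin solution, over the same 3 wk and were also 10 wk old. R mice had the same JQ1 course followed by 6 wk without drug and were 16 wk old, and VC-R mice had vehicle and the same 6 wk interval, also at 16 wk. UC mice were untreated and 15 wk old, so that their age differed from that of T. The drug was given to the whole animal, and the suspensions held germ and somatic cells together.

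In leptonema the chromosomes condense along axial cores of cohesin, SYCP2, SYCP3 and HORMAD1, and SPO11 cuts the DNA at hotspots marked by the histone methyltransferase PRDM9. In zygonema the recombinase DMC1 takes part in the search for the homolog, MEIOB protects single-stranded DNA, and the synaptonemal complex begins to assemble from SYCP1 and central element proteins. Pachynema follows with full synapsis and silencing of the unsynapsed X and Y chromosomes.

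Total UMIs over the called barcodes ranged from 9673587 to 98724982 per library, the R libraries being the deepest. Of 1261 distinct barcodes among the members, 1 was shared by 2 libraries. The library labelled VC-T 1 stood apart from the other VC-T libraries and lay near the T libraries in nearly every measure below. The T libraries and VC-T 1 also went partly against the cell type name, so the cells are called members here. Differential expression left VC-T 1 out, as the study did, and values with it are given where it enters a comparison.

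The levels of the selecting genes are a description, since the cells were chosen by them. Most members, 850, had exactly 2 of the 5 genes, 412 had 3 or more and 49 had all 5. The commonest pattern was Meiob (an OB-fold protein of meiotic recombination) with Ly6k (a GPI-anchored germ cell surface protein) and none of the other genes, in 620 members. That pattern held 225 of 271 members in T (83.0%), whereas VC-T stood at 34.7%, R at 42.9%, VC-R at 46.8% and UC at 35.7%. Within VC-T it was uneven, at 66 of 86 members in VC-T 1, 9 of 97 in VC-T 2 and 27 of 111 in VC-T 3. Over T and VC-T 1 together it held 291 of 357 members (81.5%).

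Dmc1, the meiotic recombinase, was detected in 9.33% to 13.4% of members in the T libraries, in 8.14% in VC-T 1 and in 26.4% to 69.1% in the other 11 libraries. Prss50, a testis serine protease, was detected in 6.20% to 11.9% of members across T and VC-T 1 and in 34.0% to 84.5% elsewhere. Prdm9 was detected in 2.67% to 8.14% and in 7.81% to 41.2%. For Dmc1 and Prss50 the ranges did not overlap, and for Prdm9 they overlapped slightly. Meiob, detected in 82.6% to 89.9% of members across T and VC-T 1, was in 64.0% to 82.5% elsewhere, and Ly6k was in 91.9% to 96.1% against 84% to 92.5%.

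**Figure D1:**
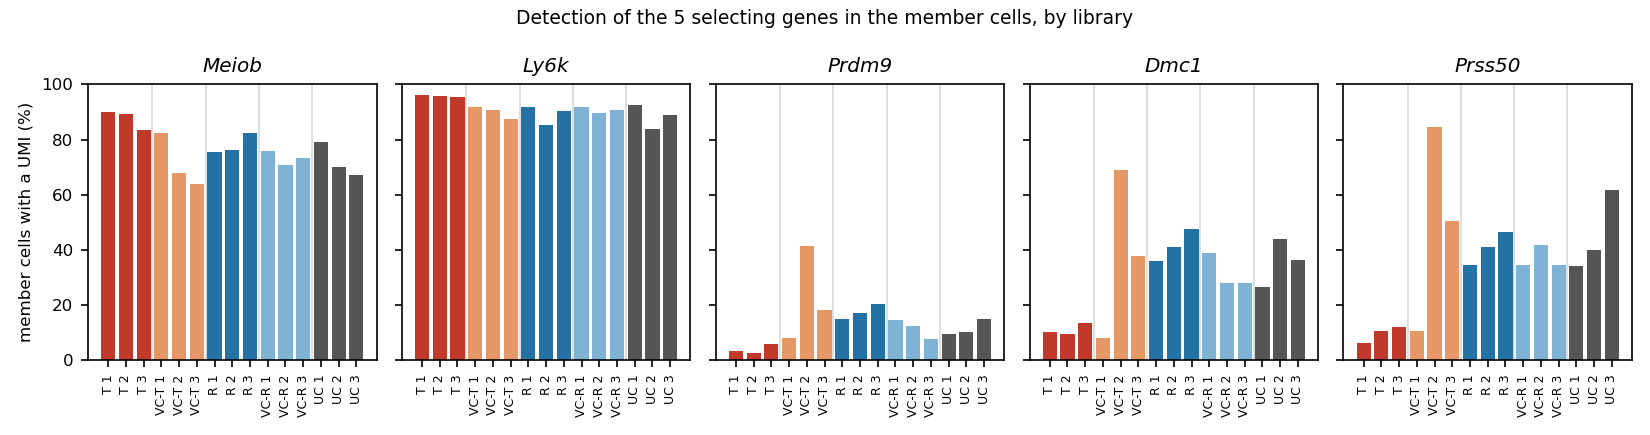
Percent of member cells (y axis) with at least 1 UMI of each of the 5 selecting genes, 1 bar per library, coloured by group. Meiob and Ly6k stood above 60% in every library, whereas Dmc1 and Prss50 stood below 14% in the T libraries and in VC-T 1 and above 26% in the other 11.

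At the edge of the rule, 850 cells just inside had 2 of the 5 genes and a median of 3643.5 UMIs, and 2662 cells just outside had 1 of the 5 and a median of 3406.5 UMIs. Of the latter, 2359 had Ly6k as that 1 gene. On the Sycp1 plus Sycp3 criterion, 80 members had exactly 2 UMIs and 84 cells outside had 1.

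Genes that the rule did not use separated the members from other cells in most libraries. Hormad1, an axis protein, had a mean level of 700 counts per 1000000 (CPM, the UMIs of a gene per 1000000 UMIs summed over the member cells of a library) in the members against 97.3 CPM in all other cells, and Sycp2, its partner on the axis, 884 against 177 CPM. Tex101, a germ cell surface glycoprotein, stood at 1107 against 135 CPM and Ankrd31, a factor of break formation, at 295 against 84.3 CPM. These 4 genes were above the other cells in all 15 libraries. Rad51ap2 stood at 85.4 against 1.87 CPM, and was above them in 14 of 15 because no UMI was found in the members of T 2. Syce2, a central element protein, was above the other cells in only 6 of 15 libraries, at 253 against 239 CPM. The 3' libraries count 1 tag per transcript, so levels are compared between genes without a length term.

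Neighbouring stages were represented by an early set of 739 cells (at least 2 of Stra8, Kit, Dmrtb1 and Sohlh1) and a pachytene set of 862 cells (Pou5f2 with Sycp1 plus Sycp3). Late spermatid transcripts, listed below, took 13.2%, 16.4% and 19.4% of early set UMIs in R and 0.144% to 0.238% in T. The other cells of R 2 and R 3 held 13.9% and 12.6%. In the pachytene set of R 3 the share was 9.79%. The part of this RNA in comparisons with these sets was not tested. Among 4287 genes of at least 50 CPM in the members, 1844 had a mean above both sets. The highest ratios to the larger of the sets were those of Rad51ap2 (16.9), A830018L16Rik (14.3) and Gml (6.13), the last of which shares sequence with Gml2 (5.11), so that their split is uncertain. Hfm1, a helicase of crossover formation, had a ratio of 4.27, Tex12, a central element protein, 3.77 and Top2b, DNA topoisomerase II beta, 3.67. Spo11 did not separate members from the pachytene set, at 83.6 and 82.6 CPM, and Zcwpw1, a reader of PRDM9-written histone marks, stood at 142 CPM in members, 113 CPM in the early set and 20.5 CPM in the pachytene set. Other markers that the rule did not use were higher in the early set. Mei1, Mei4 and Rec114, of break formation, stood at 17.5, 15.9 and 8.97 CPM in members and 42.6, 34.9 and 33.9 CPM there. Syce2 stood at 253 and 354 CPM. Terb1, of telomere attachment, was above the pachytene set in only 7 of 15 libraries.

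Markers of other cell types were present to different degrees. The 14 late spermatid transcripts, which include the protamines and transition proteins, summed to 1213 to 1833 CPM across T and VC-T 1 and to 7002 to 32269 CPM in the other 11 libraries, with every listed gene detected in each. The 8 Sertoli markers summed to 14.4 to 125 CPM across T and VC-T 1 and to 25.2 to 1615 CPM elsewhere, with VC-T 2 and VC-T 3 at 1615 and 1140 CPM. In the other cells of these libraries they summed to 696 and 498 CPM, and the members of R 2 and VC-R 3, at 1032 and 772 CPM, also exceeded their other cells, at 334 and 200 CPM. The part of this RNA in the results below was not tested. Of the defining ones, Cst9 had no UMI in the members of T or VC-T 1. The 5 Leydig markers summed to at most 26.8 CPM and the 5 macrophage markers to at most 8.95 CPM, with Pf4 at 0 in all libraries. The 4 myoid markers summed to at most 12.0 CPM across T and VC-T 1 and to 100 CPM in UC 2, the highest. The 9 spermatogonia markers summed to 40.4 to 144 CPM and the 9 round spermatid markers to 163 to 423 CPM. The 11 pachytene markers summed to 9657 to 10851 CPM across T and VC-T 1 and to 3289 to 8862 CPM elsewhere, so that the members of T carried more of this RNA than those of the other 11 libraries.

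Late spermatid transcripts took 0.159%, 0.131% and 0.121% of member UMIs in T and 3.08%, 1.66% and 1.91% in UC. In VC-T they took 0.183% in VC-T 1, 2.56% and 2.27%. The T mean differed from that of the 6 UC and VC-T libraries by -1.81 percentage points (exact two-sided permutation test over libraries, p = 0.0238, the smallest that 3 against 6 allow, and 0.0714 after Benjamini-Hochberg adjustment over 12 such tests). In the remaining cells of the same libraries the share was 0.360% to 0.549% in T, 0.517% in VC-T 1 and 11.3% to 14% elsewhere. Beyond a background subtraction, given beside the counts it moves, the part of free RNA in the differences was not tested.

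Whether JQ1 altered the number of these cells was asked first. Members made up 2.21%, 1.88% and 2.61% of cells in T, 1.48%, 2.56% and 3.01% in VC-T and 1.62%, 1.62% and 2.41% in UC. The groups overlapped, and T exceeded the pooled UC and VC-T libraries by 0.117 percentage points (exact permutation test, n = 3 and 6, p = 0.762). The sign was not stable, since thinning to 2000 UMIs gave -0.504 points (exact p = 0.667). A stricter rule of at least 3 of the 5 genes gave -0.806 points, as a description. That rule counts cells by the selecting genes and left 4 to 6 members per T library and 1 in VC-T 1. The denominators differed, since late spermatid transcripts were low in the remaining T cells, and their part in this share was not tested. Counting error alone gave exact 95% intervals such as 1.85% to 2.62% for T 1 and 1.18% to 1.82% for VC-T 1.

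Against the neighbouring stages only, T had lower values, though not past the adjusted p. Members made up 36.6%, 24.0% and 32.8% of the members, early set and pachytene set together in T, 48.2%, 57.5% and 63.7% in UC, and 33.3%, 50.5% and 50.7% in VC-T. T lay below each UC library, while VC-T 1 lay within the T range. The difference was -19.5 points (31.2% ± 6.51, SD, n = 3, against 50.6% ± 10.2, n = 6), with an exact permutation p of 0.0476 and an adjusted p of 0.114. Without VC-T 1 it was -23.0 points (exact p = 0.0357). A thinning of all cells to 2000 UMIs, which left out 3025 of the 12402 T cells, gave -20.0 points (exact p = 0.0476). The pachytene set held 159, 187 and 98 cells in T and 136 in VC-T 1. It held 32, 8 and 18 in UC and 10 and 36 in VC-T 2 and VC-T 3. Members numbered 129, 75 and 67 in T and 53, 50 and 107 in UC, so the lower share does not by itself show fewer members. The members and both neighbouring sets are defined by the selecting genes. Pou5f2, required for the pachytene set, stood at 60.1 to 89.8 CPM over all cells in T and 53.2 CPM in VC-T 1. In the other 11 libraries it stood at 26.1 to 38.0 CPM. The p of this share thus rests on the selecting genes and is no separate evidence on stage.

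Members with a UMI of Prdm9, Dmc1 or Prss50 were fewer in T than in UC, VC-T 2 or VC-T 3, as a description. They numbered 19, 12 and 15 in the T libraries, or 0.325%, 0.301% and 0.584% of cells. VC-T 1 held 20 (0.344%), VC-T 2 and VC-T 3 held 88 and 84 (2.32% and 2.28%), and UC libraries held 26, 32 and 77 (0.793%, 1.03% and 1.73%). R libraries stood at 0.460% to 0.634% and VC-R libraries at 0.871% to 1.37%. These values use the selecting genes and carry no test.

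At recovery the member share was 0.868%, 1.14% and 0.765% of cells in R, against 1.49%, 2.53% and 2.19% in VC-R and 1.62% to 2.41% in UC. Each R library lay below each control, and the means differed by -1.05 points (exact permutation test, n = 3 and 6, p = 0.0238, adjusted p = 0.0714). The R libraries had the deepest member cells, with median UMIs of 5420, 5254.5 and 6267 against 2618 to 3604.5 in VC-R and UC (difference 2512, exact p = 0.0238, adjusted p = 0.0714). With each cell thinned to 2000 UMIs before the rule was applied, and 9706 R, 3296 VC-R and 2666 UC cells left out as shallower, R differed from the controls by -0.0338 points (exact p = 0.976). Within the neighbouring stages the R share differed by -9.44 points (exact p = 0.0238, adjusted p = 0.0714), and after thinning by 7.12 points (exact p = 0.143). These sets too are defined by the selecting genes, so the p rests on them.

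Median UMIs per member in T were 4088, 4133 and 3188 and overlapped those of UC and VC-T (1954 to 4012, exact permutation p = 0.143). At a common depth of 2000 UMIs a member showed 1378 ± 9.64 genes in T (SD, n = 3), 1361 ± 15.6 in UC and VC-T (n = 6, exact p = 0.143) and 1375 ± 3.63 in R against 1358 ± 11.8 in UC and VC-R (exact p = 0.0714). Mitochondrial UMIs made up 1.99% to 2.27% in T, 1.81% in VC-T 1 and 2.01% to 3.97% in the other 11 libraries.

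The X chromosome is transcribed in early prophase and silenced in pachynema, and no gene of the rule lies on it. X-linked genes took 0.209%, 0.230% and 0.289% of member UMIs in T, 0.223%, 2.00% and 1.16% in VC-T and 0.622%, 0.755% and 0.882% in UC. T lay below all UC libraries and below VC-T 2 and VC-T 3, and VC-T 1 lay within the T range. The difference from UC and VC-T was -0.698 points (exact permutation test, n = 3 and 6, p = 0.0714, adjusted p = 0.122) and without VC-T 1 -0.842 points (exact p = 0.0357). R stood at 0.590%, 0.804% and 0.962%, overlapping the 0.439% to 0.882% of VC-R and UC (difference 0.121 points, exact p = 0.310). Under the stricter rule the difference was 0.434 points (1.54% against 1.11%, exact p = 0.0476).

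Members exceeded the pachytene set of their own library in X-linked share in 12 of 14 libraries, R 3 and VC-R 2 being the others and UC 2 having too few pachytene cells. The mean difference was 0.442 ± 0.414 points (SD, exact sign-flip permutation test over 14 libraries, p = 0.000488). The early set held 1.29% to 2.12% in all libraries. The members thus fell between the neighbouring stages in most libraries. In T the pachytene sets held 0.115%, 0.0677% and 0.0988%, below the members of the same libraries.

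Split by the selecting genes, the members differed in X-linked share in T as elsewhere. In members with a Prdm9, Dmc1 or Prss50 UMI the share was 0.858%, 0.893% and 1.09% in T, 0.655% in VC-T 1 and 1.14% to 2.28% in the other 11 libraries. In members without one it was 0.119% to 0.140% in T, 0.122% in VC-T 1 and 0.112% to 0.684% elsewhere, against 0.0677% to 1.04% in the pachytene set. This split was made after the values were seen and carries no test. For a level summed over all members, the mix of these kinds of cell and the level within each cannot be told apart.

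**Figure D2:**
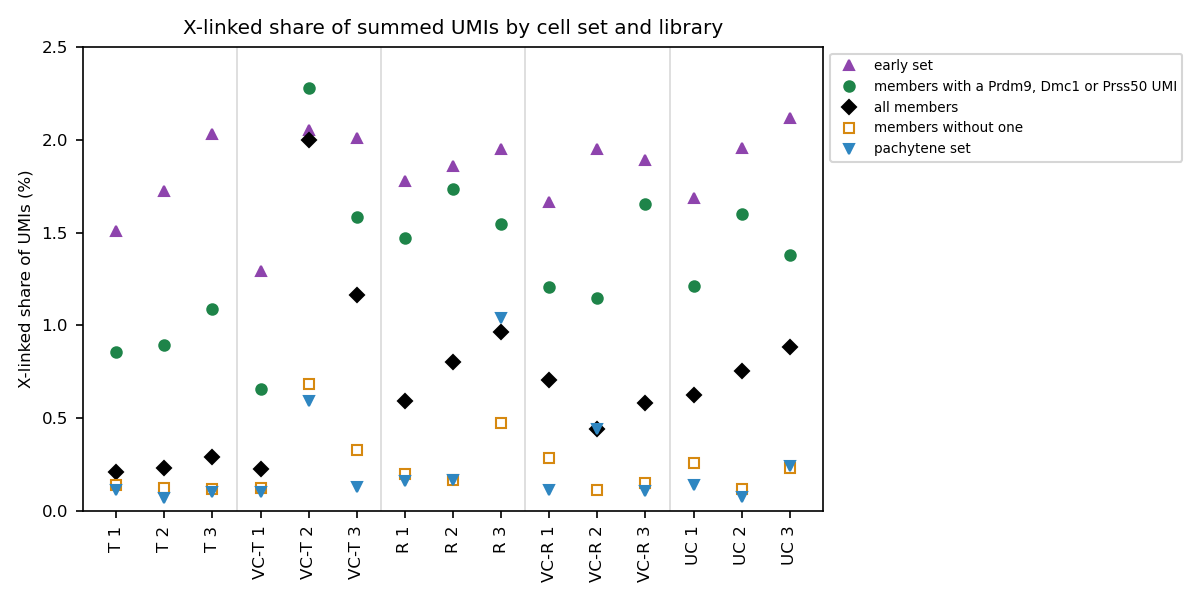
X-linked share of summed UMIs (y axis, %) in each library for 5 sets of cells. All members (black) lay at 0.209% to 0.289% in T and at 0.223% in VC-T 1, and members with a Prdm9, Dmc1 or Prss50 UMI (green) lay above members without one (open squares) in every library.

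The transcriptome of the members was compared between T and UC in UMI counts summed per library (edgeR's quasi-likelihood test with Benjamini-Hochberg adjustment, with genes called where the adjusted p was below 0.05 and the log2 fold change beyond 1 in either direction). Of 5597 genes tested, 588 were called (10.5%), with 124 higher in T (2.22%) and 464 lower (8.29%). By the adjusted p alone 24.9% passed. Of the 464, 208 had a level in the UC members below that of the other UC cells, and 256 had a level at or above it. Of the 124, 80 had such a level of their own. The 588 became 342 after subtraction of a background scaled to the late spermatid transcripts, which removed 25.3% to 34.6% of UMIs in T and 10.8% to 22.4% in UC. The scale was the late transcript share in members over that in the other cells. The other cells held 0.360% to 0.549% in T and 12.1% to 13.9% in UC. In T it is thus a ratio of 2 low shares, and the 342 is a rough figure. Without UC 1 the count was 912, and the lowest count on leaving out 1 library was 438, without UC 3.

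**Figure D3:**
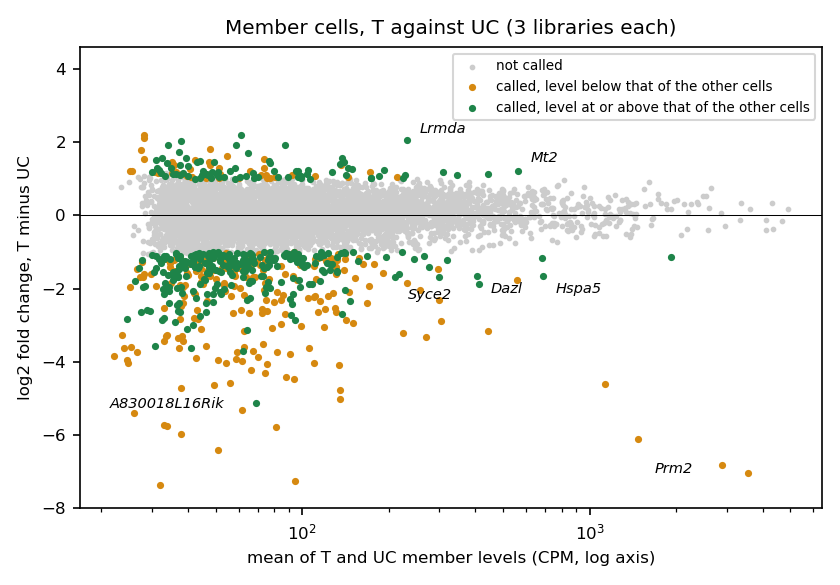
Log2 fold change of T against UC (y axis) over the mean level of T and UC (x axis, CPM, log scale) for the 5597 genes tested in the members. Grey genes were not called, green called genes had a level at or above that of the other cells, and orange called genes had a level below it, Prm2 among them at -7.02.

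The genes that fell with the smallest adjusted p at a level of their own included Dazl, an RNA-binding protein that germ cells need for translation on entry into meiosis. Dazl (chr17:50279395-50293636, mm10) stood at 163, 155 and 238 CPM in T, 483, 687 and 737 CPM in UC, and 176, 1088 and 895 CPM in VC-T. T and VC-T 1 were low and did not overlap UC. The log2 fold change against UC was -1.88 ± 0.17 (SE, edgeR's quasi-likelihood test, adjusted p = 5.78e-10).

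Hist1h2aa, a testis-specific histone H2A, stood at 152, 152 and 129 CPM in T and 429, 482 and 454 CPM in UC, with VC-T 1 at 122 CPM. Top2b stood at 29.3, 20.9 and 20.1 CPM in T and at 143, 173 and 164 CPM in UC. A830018L16Rik (chr1:11414105-11975901) gave 2, 2 and 0 UMIs in the T members, or 3.67, 5.98 and 0 CPM, against 93.9, 182 and 127 CPM in UC. At that level in T, A830018L16Rik passed the filter on low counts through UC, so only a fall could be called. In each of these genes T was below all UC libraries, and VC-T 1, at 3.60 CPM for A830018L16Rik and 36.0 CPM for Top2b, was nearer to T than to UC. The log2 fold changes were -1.68 ± 0.15, -2.73 ± 0.27 and -5.13 ± 0.46 (SE), with adjusted p of 6.99e-10, 2.91e-09 and 4.26e-10 by edgeR's quasi-likelihood test.

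Hspa5, the endoplasmic reticulum chaperone BiP, stood at 325, 344 and 363 CPM in T and 792, 1010 and 1303 CPM in UC, a log2 fold change of -1.66 ± 0.15. Ncl, nucleolin of the nucleolus, fell by 1.66 ± 0.16, and Sdk1, an adhesion molecule, by 2.68 ± 0.28. Rnaset2a, a lysosomal ribonuclease with a near-identical neighbour that makes its count uncertain, fell by 3.13 ± 0.34.

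Genes higher in T at a level of their own were led by Lrmda (chr14:22019712-23056085), at 396, 317 and 403 CPM in T, 125, 86.4 and 59.7 CPM in UC and 256, 42.5 and 59.8 CPM in VC-T. Mt2, a metallothionein, stood at 867, 840 and 677 CPM in T and 322, 337 and 337 CPM in UC. Pou2f2, a POU transcription factor, stood at 193, 209 and 222 CPM in T and 76.0, 68.2 and 72.7 CPM in UC. In all 3 genes T lay above the other 12 libraries, with VC-T 1 the next highest. The log2 fold changes were 2.07 ± 0.20, 1.22 ± 0.14 and 1.45 ± 0.20 (SE), with adjusted p of 2.81e-09, 5.18e-08 and 2.13e-06 by edgeR's quasi-likelihood test.

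Nkx6-2, a homeobox factor, rose by 1.93 ± 0.28, Slc47a2, a drug and toxin exporter, by 1.58 ± 0.21, Adgrb3, an adhesion G protein-coupled receptor, by 2.19 ± 0.34, and Prok2, a secreted prokineticin, by 1.12 ± 0.17. Crybg3, Mroh2b and 3 transcripts without an established name or role (Gm16083, 4930414F18Rik and Gm41335) rose by 1.14 to 1.46. For the 24 genes named by smallest adjusted p, T did not overlap the other 11 libraries in any of the 12 higher or 12 lower genes, and VC-T 1 was nearer to the T mean than to the UC mean in 9 and 12 of them. The genes were chosen for this contrast, so the counts are a description.

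**Figure D4:**
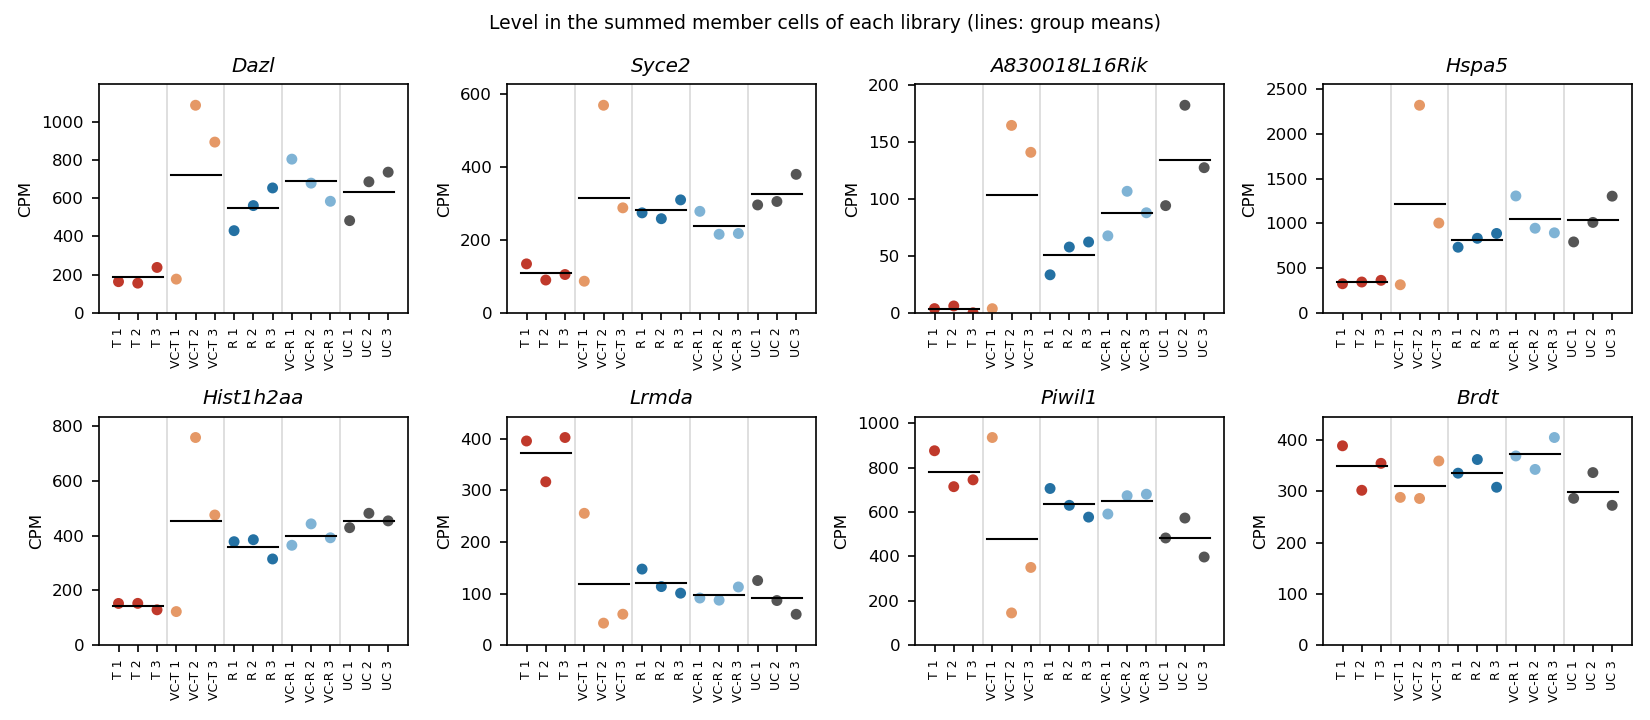
Level (y axis, CPM) of 8 genes in the summed members of each library, with 1 point per library and lines at group means (n = 3). Dazl, Syce2, A830018L16Rik, Hspa5 and Hist1h2aa were low in T and VC-T 1, Lrmda was high in T, Piwil1 was high in T and VC-T 1, and Brdt overlapped between groups.

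Counts of called genes in the lists below stand beside 8.29% lower and 2.22% higher among all genes tested, and lists this small allow no reading of 1 call in 9 or 10 as a difference from that share. A gene could pass the filter on low counts through 1 group alone, which favours a call as higher in that group. Of 15 listed axis and synaptonemal complex genes 12 passed the filter on low counts, and 3 fell and 0 rose, with a list median log2 fold change of -0.33 against -0.01 over all tested genes. Syce2 stood at 134, 89.7 and 105 CPM in T and 295, 305 and 379 CPM in UC (-1.60 ± 0.18, SE, edgeR adjusted p = 3.00e-08). 4930447C04Rik, which encodes the central element protein SIX6OS1, fell by 1.41 ± 0.16, and Fbxo47, an F-box protein needed for synapsis, by 1.65 ± 0.36. Hormad1, at -0.62 ± 0.14, passed the adjusted p alone. Sycp2 was at -0.20 ± 0.13 and Smc1b, the meiotic cohesin subunit, at -0.29 ± 0.13, neither past the adjusted p.

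Of 8 break formation genes tested 2 fell and 0 rose, with a list median of -0.39. Zcwpw1 stood at 53.2, 44.8 and 68.5 CPM in T and 130, 164 and 234 CPM in UC (-1.79 ± 0.24, edgeR adjusted p = 1.10e-06), and Hells, a chromatin remodeller that acts with PRDM9, was at -1.24 ± 0.22. Spo11 (-0.05 ± 0.25) and Ankrd31 (0.09 ± 0.15) did not pass. Of 17 strand exchange and repair genes tested 3 fell and 0 rose, with a list median of -0.16. Rad51ap2 fell by 3.70 ± 0.47, on 3, 0 and 7 UMIs in T, Mnd1, which with PSMC3IP stimulates DMC1, fell by 1.95 ± 0.40, and Mcm8, a repair helicase, by 1.93 ± 0.44. Rad51ap2 at that level in T passed the filter through UC, so only a fall could be called. Psmc3ip itself stood at 0.42 ± 0.14 and passed the adjusted p alone (0.0206).

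Of 6 crossover genes tested, Hfm1 (-1.17 ± 0.28) and Shoc1 (-1.12 ± 0.36), an XPF-like protein of crossover formation, fell and none rose, with a list median of -0.44. Of 8 telomere attachment genes tested (9 of the 10 listed were measured) none was called in either direction, by edgeR at the stated thresholds, and the list median was 0.13. Of 10 genes of silencing of unsynapsed chromatin tested, 1 fell, the X-linked Scml2, a Polycomb-type protein (-2.13 ± 0.36), and the list median was -0.05. H2afx, the histone phosphorylated on the sex body, was at -0.21 ± 0.19.

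Among regulators of meiotic entry and its programme, 4 of 14 tested genes fell and none rose, with a list median of -0.25. Besides Dazl they were the X-linked Taf7l, a TFIID subunit (-2.29 ± 0.27), Tex15, needed for recombination and transposon silencing (-2.35 ± 0.25), and Mga, a subunit of a repressor of meiotic genes in mitotic germ cells (-1.40 ± 0.33). Tex15 stood at 29.3, 44.8 and 88.6 CPM in T and 210, 282 and 226 CPM in UC. Tcfl5, a transcription factor of pachynema, was higher at 0.63 ± 0.15 and passed the adjusted p alone (0.00184). Of 9 premeiotic replication genes tested, 1 fell, Lig1, DNA ligase I (-1.42 ± 0.31), and the list median was -0.09.

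Of 15 piRNA genes tested, 1 rose, Henmt1, which methylates piRNA ends (1.34 ± 0.38, edgeR adjusted p = 0.00935), and none fell, with a list median of 0.31. By the adjusted p alone 4 were higher and 1 lower, against 10.6% higher and 14.3% lower among all genes. Tdrd1, a Tudor scaffold protein, was at 0.81 ± 0.16 and Mael, another protein of the pathway, at 0.41 ± 0.13, while Mov10l1, the piRNA helicase, was at -0.69 ± 0.15.

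Of 10 pachytene markers tested 0 rose and 1 fell, Pgk2, the testis phosphoglycerate kinase (-1.37 ± 0.28), and the list median was 0.34. Piwil1, the pachytene piRNA protein MIWI, stood at 877, 715 and 745 CPM in T and 483, 573 and 397 CPM in UC (0.67 ± 0.14). It passed the adjusted p alone, as did Shcbp1l (0.71 ± 0.14), Clgn, a germ cell chaperone of the endoplasmic reticulum (0.58 ± 0.13), and Hspa2, a testis heat shock protein (0.43 ± 0.12). Of the other marker lists, the late spermatid transcripts fell in 13 of 14 with a median of -3.26, led by Prm2 (-7.02 ± 0.25), Prm1 (-6.80 ± 0.27) and Tnp2 (-6.11 ± 0.29). The 1 Sertoli marker tested, Defb19, fell (-1.65 ± 0.40). Neither the 2 round spermatid markers nor the 1 spermatogonia marker tested was called, and no Leydig, myoid or macrophage marker passed the filter.

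The BET proteins, which JQ1 binds, and P-TEFb, a kinase of transcription elongation, showed no called change in their genes. Of 6 tested BET and P-TEFb genes 0 were called, with a list median of -0.04. Brdt stood at 389, 302 and 355 CPM in T, 286, 337 and 273 CPM in UC and 288, 286 and 359 CPM in VC-T, and these groups overlapped (0.20 ± 0.15, edgeR adjusted p = 0.350). Brd3 (0.78 ± 0.20) and Larp7, a subunit of the complex that holds P-TEFb inactive (0.40 ± 0.14), passed the adjusted p alone. Brd2 was at -0.29 ± 0.17.

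X-linked genes were few among those tested. Of 26 X-linked genes tested in T against UC, 24 fell and 0 rose, with a median log2 fold change of -2.20. Fmr1, which encodes the RNA-binding protein FMRP (chrX:68678541-68717963), stood at 18.3, 17.9 and 40.3 CPM in T and 125, 200 and 166 CPM in UC (-2.85 ± 0.29). Genes this low pass the filter mainly through UC, so the count is no measure of all X-linked genes. In the members with a Prdm9, Dmc1 or Prss50 UMI 12 X-linked genes were tested and 4 fell.

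The same comparison was made within the kinds of member. In members with a Prdm9, Dmc1 or Prss50 UMI (46 cells in T, 135 in UC), 213 of 1730 genes were called (12.3%), 107 higher (6.18%) and 106 lower (6.13%). In members without one (225 and 75 cells), 88 of 3971 were called (2.22%), 15 higher (0.378%) and 73 lower (1.84%), of which 9 and 8 had a level of their own. These subsets were chosen after the values were seen, so their fold changes are given without p. They are also shallower sums, and fewer genes could be tested.

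Dazl was at -1.48 ± 0.21 in the former and -0.96 ± 0.22 in the latter. Hspa5 was at -1.66 ± 0.21 and -0.60 ± 0.16, and Syce2 at -1.53 ± 0.26 and -0.60 ± 0.25. Hist1h2aa was at -0.50 ± 0.28 and -1.41 ± 0.25, the opposite order, though no difference between the subsets was tested. Hormad1 was at -1.38 ± 0.26 and -0.24 ± 0.14. Piwil1 was at 1.83 ± 0.32 and 0.04 ± 0.13, Clgn at 1.25 ± 0.28 and 0.10 ± 0.13, and Tdrd1 at 1.62 ± 0.37 and 0.22 ± 0.17. In these pachytene-associated genes the members without those UMIs were near the UC level, and those with one were higher. In the members with those UMIs Hells was at -0.30 ± 0.25 and Tex15 at -0.79 ± 0.30, nearer to 0 than in all members.

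Mt2 was at 1.71 ± 0.26 and 0.79 ± 0.14. Lrmda, too low in UC for the test in the former, was at 1.51 ± 0.22 in the latter, and Nkx6-2 and Adgrb3 were at 1.45 ± 0.33 and 1.64 ± 0.37. Of the 24 named genes, 13 could be tested in the former subset and 18 in the latter, and all had the sign seen in all members. The 24 were chosen on the sums of these same cells, so a shared sign was favoured by the choice. At the thresholds, 10 and 4 of them were called.

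**Figure D5:**
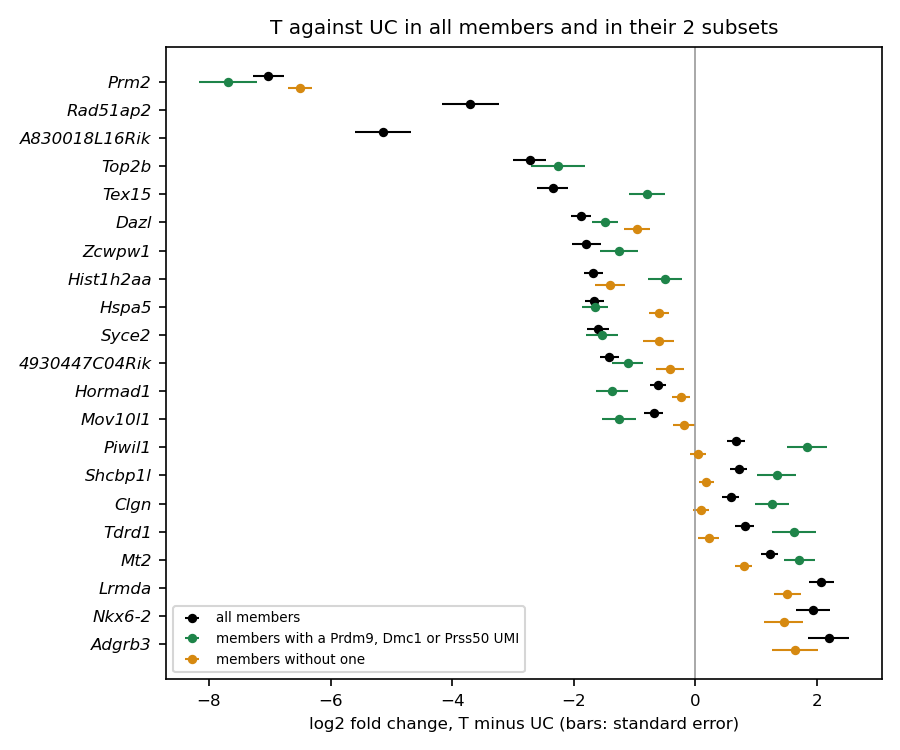
Log2 fold change of T against UC (x axis, bars are standard errors) for 21 genes in all members (black), members with a Prdm9, Dmc1 or Prss50 UMI (green) and members without one (orange), with a point missing where a gene could not be tested. Dazl, Hspa5 and Syce2 lay below 0 in all 3, and Piwil1 was at 1.83 in the green and 0.04 in the orange subset.

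Against the vehicle libraries VC-T 2 and VC-T 3, of 6878 genes 2444 were called (35.5%), 1159 higher (16.9%) and 1285 lower (18.7%), of which 642 and 952 had a level of their own. With VC-T 1 included 0 were called (edgeR's quasi-likelihood test, with 935 genes at an unadjusted p under 0.05). Without VC-T 2 the count was 1454, and without VC-T 3 it was 3651. Each of these leaves 1 control library, which is assumed to vary as the T libraries do. The comparison shares its T libraries with that against UC.

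Lrmda (2.92 ± 0.27), Pou2f2 (2.95 ± 0.29), 4930414F18Rik, Gm21388 and Smpd5 were the 5 higher genes of smallest adjusted p at a level of their own, and A830018L16Rik (-5.29 ± 0.46), Clu, Rpl39, Defb19 and Ndufa1 the 5 lower. Clu (-4.52 ± 0.32) and Defb19 (-4.07 ± 0.35) are Sertoli markers. The 6 Sertoli markers tested passed the filter through VC-T 2 and VC-T 3, where the list was highest, so that all 6 fell was largely fixed by the filter. Rpl39 and Ndufa1 are X-linked, and of 98 X-linked genes tested 96 fell. The X-linked share was 2.00% and 1.16% in VC-T 2 and VC-T 3, so genes low in T passed the filter through VC-T and this count is no measure of all X-linked genes. Break formation genes fell in 5 of 9 tested and strand exchange genes in 8 of 23 (2 rose), while pachytene markers rose in 5 of 10 and piRNA genes in 4 of 16, beside the shares of all genes given above. The break formation list summed to 1278 to 1971 CPM in VC-T 2 and VC-T 3 and to 882 to 1064 CPM in T. A gene could pass the filter through 1 group alone, which favours a call as higher there, so these counts are a description. The pachytene markers that rose were Piwil1, Shcbp1l, Ldhc, Clgn and Hspa2. No gene of the telomere list or of the BET and P-TEFb list was called, of 8 and 7 tested.

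At 6 wk after the last dose few differences were called. R against UC gave 1 gene of 6742 (0.0148%), Cypt4, a transcript of spermatids named after its value was seen, at 174, 198 and 205 CPM in R and 98.4, 59.1 and 80.5 CPM in UC (1.28 ± 0.21, edgeR adjusted p = 0.0124). Its level in the members was below that of the other cells. Leaving out R 2, R 3 or UC 2 gave 0 calls and leaving out UC 1 gave 8. Of the 24 genes named for T against UC, all were tested in R and 0 were called.

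Dazl stood at 430, 562 and 654 CPM in R (-0.21 ± 0.16 against UC, edgeR's quasi-likelihood test, adjusted p = 0.877) and Syce2 at 274, 258 and 309 CPM (-0.23 ± 0.15). Lrmda stood at 147, 113 and 101 CPM, overlapping UC (0.45 ± 0.25). A830018L16Rik stood at 33.3, 57.6 and 62.0 CPM, below the lowest UC library at 93.9 CPM, and its log2 fold change of -1.32 ± 0.26 did not pass (edgeR adjusted p = 0.0602).

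R against VC-R gave 66 genes higher and 0 lower of 7148 (0.923%). Of the 66, 65 had a level in the members below that of the other cells, at a median of 0.228 of it and quartiles of 0.216 and 0.247. Prm2 (1.05 ± 0.22) and Prm3 (1.44 ± 0.24) were the called genes of the 14 late spermatid transcripts, and no gene of the other lists was called. Late spermatid transcripts took 2.47%, 2.40% and 3.23% of member UMIs in R and 2.03%, 0.700% and 1.24% in VC-R, without overlap, but overlapped the 1.66% to 3.08% of UC. Against VC-R and UC together the difference was 0.929 points (exact permutation test, n = 3 and 6, p = 0.119, adjusted p = 0.171), and under the stricter rule -0.496 points (exact p = 0.786). Background subtraction left 1 call. Leaving out R 1, R 3 or VC-R 2 gave 0 calls, and leaving out VC-R 1 gave 340.

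The 1 called gene with a level of its own was Specc1, which encodes a cytospin, at 61.8, 79.2 and 85.5 CPM in R, 39.7, 32.9 and 33.4 CPM in VC-R and 58.1, 50.0 and 96.0 CPM in UC. R was above VC-R and overlapped UC. The log2 fold change was 1.13 ± 0.26 (edgeR adjusted p = 0.0487), and without R 1, R 2, R 3, VC-R 2 or VC-R 3 it was no longer called.

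VC-R against UC, neither of which had received JQ1, gave 0 of 5067 genes (0.0%), by edgeR and by DESeq2, with 436 at an unadjusted p under 0.05. Without VC-R 1 it gave 52. The difference between the responses at the 2 times, T minus VC-T less R minus VC-R, was tested directly and called in 2430 of 7785 genes (31.2%), and in 369 with VC-T 1 included. Dazl differed by -2.12, Syce2 by -2.19 and Lrmda by 2.60 on the log2 scale.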

How the data were processed

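Single-cell suspensions of 15 testes, 1 per mouse, were sequenced with a droplet 3' kit, and the authors aligned reads to mm10 with Cell Ranger, version 3.0.0 in the submitters' processing notes and 7.0.0 in the matrix headers. The deposited values were UMI counts per gene and called barcode, not normalized. The study's later removal of free RNA and doublets was not part of them, and doublets were not called here. Cells were filtered as stated, and the members' counts were summed per library. Library VC-T 1 was left out of differential expression, as in the study. The members and gene lists were chosen with earlier results of these data known.

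edgeR 4.0.16 (R 4.3.3; quasi-likelihood test, TMM, filterByExpr, Benjamini-Hochberg) was applied to all genes, with the 14 selecting genes left out. Genes were called at an adjusted p below 0.05 and an absolute log2 fold change above 1. DESeq2 1.42.0 was an alternative, with other size factors, no filter, 1 fit of 14 libraries, a replicate block, a stricter rule, background subtraction and leaving out each library. In simulated T and UC counts for 5304 genes, 100% of the 178 genes changed 4-fold that passed the filter were recovered. Of 182 calls 4 were false, and smaller changes were not simulated. Single values were compared over libraries by exact two-sided permutation tests (scipy 1.17.1), with Benjamini-Hochberg adjustment over 12. Shares of cells have exact Clopper-Pearson 95% intervals, which cover counting error only. Depth was 9673587 to 98724982 UMIs per library.

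Named genes were those of the gene lists, the 12 in each direction of smallest adjusted p in T against UC with a member level at least that of the other cells (5 in each direction for the other comparisons), the 3 in each direction of smallest adjusted p whatever that level, and the 20 with the highest ratio to the neighbouring stages. Positions are those of GENCODE vM21 on mm10. Others were named after their values were seen, and the text says so.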

Additional observations from a re-analysis of the deposited data

Results flagged for a closer look

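The response to JQ1 at 3 wk, T minus VC-T, was set against the difference at recovery, R minus VC-R, by an interaction term in edgeR's quasi-likelihood test without VC-T 1. It differed in 2430 genes, and in 369 with VC-T 1 included. Values below are differences of the log2 fold changes, and these genes were mostly named for the response at 3 wk, so that a difference was favoured by the choice.

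Among genes higher in T, the difference was 2.60 for Lrmda, 1.01 for Mt2, 2.02 for Slc47a2, 3.16 for Pou2f2 and 2.47 for Nkx6-2. It was 2.26 for both Gm16083 and 4930414F18Rik, 2.19 for Crybg3, 1.65 for Adgrb3, 2.20 for Prok2, 1.70 for Mroh2b and 1.84 for Gm41335. Gm21388 and Smpd5, named for T against VC-T, differed by 2.74 and 2.09.

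Among genes lower in T, the difference was -4.54 for A830018L16Rik, -2.12 for Dazl, -1.91 for Hspa5, -1.90 for Hist1h2aa, -2.94 for Top2b and -1.93 for Ncl. The RNA-binding and recombination genes Fmr1 and Tex15 differed by -3.87 and -3.60, Sdk1 by -4.15 and Rnaset2a by -3.29. The central element genes Syce2 and 4930447C04Rik differed by -2.19 and -1.85. The X-linked Rpl39 and Ndufa1 differed by -3.75 and -2.59.

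Transcripts of other cells differed as well. The Sertoli markers Clu and Defb19 gave -5.06 and -5.79, and the spermatid transcripts Prm2, Prm1 and Tnp2 gave -7.67, -8.44 and -7.68. Their summed levels in the members are given with the marker lists above, and their part in the other differences was not tested.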

How the results depend on the processing

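Directions of the 38 single named results held in all 505 alternative values, of which 38 no longer passed the thresholds. The alternatives reuse the libraries on which these results were chosen, so a shared direction was favoured by the choice. The T libraries held only 4 to 6 members under the stricter rule (at least 3 of the 5 genes), so it was not run for gene counts in T. The split by Prdm9, Dmc1 or Prss50 was added after seeing the data, and for T against VC-T its members without those UMIs rest on 1 control library. A library held 50 to 129 members. Controls of 1 group only leave 3 against 3, whose exact p cannot go below 0.1.

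With untreated controls only and with same-time vehicle controls only, the member share in R differed by -0.956 and -1.15 points, the share of neighbouring stages by -25.3 and -13.7 in T and -9.66 and -9.22 in R, median UMIs in R by 2503 and 2521, and late spermatid transcripts in T by -2.08 and -1.54. Thinning moved the R share to -0.0338 and reversed that of neighbouring stages in R to 7.12. The stricter rule gave -26.9 (T) and -5.09 (R) for neighbouring stages, 57.8 and 54.2 for genes at 2000 UMIs, -0.672 (exact p = 0.0476) and 0.434 (exact p = 0.0476) for the X-linked share, and 1.04 for members minus the pachytene set over 10 libraries (T, VC-T 1 and UC 2 left out). It reversed the member share in T to -0.806, as thinning did to -0.504 and same-time vehicle controls only to -0.118, median UMIs in T to -83.5 and late spermatid transcripts in R to -0.496. In T the values under the stricter rule rest on 4 to 6 members per library, of which 2 to 4 had 2000 UMIs or more. VC-T 1 held 1 such member, of 1071 UMIs and an X-linked share of 2.06%, and was left out for genes at 2000 UMIs. These differences for T are therefore rough.

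Called genes, with no filter, were 1055 (T against UC), 26 (R against UC), 237 (R against VC-R) and 30 (VC-R against UC). Background subtraction gave 342, 1518 (T against VC-T), 6 (R against UC) and 1 (R against VC-R). Members with a Prdm9, Dmc1 or Prss50 UMI gave 213, 230, 12 and 174 in T against UC, T against VC-T, R against UC and R against VC-R, and 552 for the interaction; those without gave 88, 44, 0 and 1, 1 for VC-R against UC and 23. VC-T 1 included gave 0 for T against VC-T and 369 for the interaction. The stricter rule gave 15, 4 and 18 in R against UC, R against VC-R and VC-R against UC, 1 fit of 14 libraries 0 in R against UC, and DESeq2 25 in R against VC-R, 415 in T against UC and 1791 in T against VC-T.

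Replicate numbers did not pair the samples: correlations of deviations were -0.387 to 0.263 (median 0.0199) for 26 same-numbered pairs and -0.396 to 0.396 (median -0.0370) for 52 others. The replicate block gave 24 (R against UC), 32 (R against VC-R), 27 (VC-R against UC), 556 (T against UC), 2023 (T against VC-T) and 2205 (interaction).

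Leaving out 1 library gave 438 (without UC 3) to 912 (without UC 1) for T against UC, 1454 to 3651 for T against VC-T, 0 to 8 for R against UC, 0 to 340 for R against VC-R, 0 to 52 for VC-R against UC and 1246 (without VC-T 2) to 3262 (without VC-T 3) for the interaction. The member share differed by -0.0710 to 0.296 (T) and -1.16 to -0.940 (R), that of neighbouring stages by -23.0 to -15.9 and -11.0 to -7.95, median UMIs by 531 to 1058 and 2202 to 2709, genes at 2000 UMIs by 11.8 to 21.3 and 13.8 to 20.8, the X-linked share by -0.842 to -0.486 and 0.0328 to 0.219, late spermatid transcripts by -2.16 to -1.58 and 0.664 to 1.19, and the X-linked share against the pachytene set by 0.367 to 0.482. The cause of these moves was not tested.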
